A study of Mus musculus with 4 samples.

Results

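The genes of MHC class II antigen presentation and their transactivator Ciita were read in mouse bone-marrow-derived macrophages, cells grown in culture from bone marrow precursors. There were 9 members among 55536 annotated genes: the chains H2-Aa, H2-Ab1 and H2-Eb1, the invariant chain Cd74, the peptide-loading genes H2-DMa, H2-DMb1, H2-DMb2 and H2-Oa, and Ciita. They were chosen by name, by matching each symbol in the transcript table to its gene identifier. The data are 1 group of 4 polyA RNA-seq libraries, numbered as biological replicates 1 to 4, from primary macrophages of the strain C57BL/6J. According to the sample descriptions, all 4 cultures received 100 ng/mL Lipid A, a ligand of the receptor TLR4, for 12 h, were washed for 12 h, and then received 100 ng/mL again for 60 min. Other labels of the same samples name the agent lipoprotein A and mention no washout. The labels give no age, no sex and 1 donor record for all 4 libraries, so the spread between libraries, on which every p-value below rests, may be technical. No untreated culture was analysed here, and no value below is a response to either exposure.

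MHC class II molecules are pairs of an alpha and a beta chain that present peptides from the endosomal pathway to CD4+ T cells. The invariant chain Cd74 fills the groove of new pairs and guides them to endosomes, where H2-DM exchanges its remnant for peptide and H2-O restrains H2-DM. Ciita binds no DNA itself. It is recruited by the RFX and NF-Y factors that sit on class II promoters and it switches these genes on, above all under interferon gamma in macrophages.

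The stretches of promoter that carry letters like those of the X box and the Y box are shown first, since these elements are what the promoters of class II genes are known to share. RefSeq windows (GRCm38.p6, 250 bases before to 50 after the start) were held for 6 of the 9 members, and none was held for H2-Ab1, Cd74 or Ciita. The search was for CNNNNAAC, loosely like the core of an X box, followed after 12 to 32 bases by GATTGG, the Y box (an inverted CCAAT). Both strands were read, and the letters and the gap were chosen after the members' sequences had been seen, so a match is a description only. The matched parts are in capitals, each run is 5′ to 3′ on the gene's own strand, and 10 bases are printed on each side. For H2-Oa the earlier of 2 overlapping matches is shown.
H2-Aa: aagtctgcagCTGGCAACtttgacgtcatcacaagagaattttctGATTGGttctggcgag
H2-Eb1: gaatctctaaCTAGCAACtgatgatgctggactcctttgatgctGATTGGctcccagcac
H2-DMb1: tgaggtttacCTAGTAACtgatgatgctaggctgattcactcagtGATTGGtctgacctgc
H2-DMb2: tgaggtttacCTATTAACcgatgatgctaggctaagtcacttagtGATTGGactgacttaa
H2-Oa: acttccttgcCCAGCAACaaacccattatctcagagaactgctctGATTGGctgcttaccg

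These runs lie on chromosome 17, at 34287857 to 34287917 for H2-Aa (minus strand) and, on the plus strand, at 34305763 to 34305822 for H2-Eb1, 34153084 to 34153144 for H2-DMb1, 34145113 to 34145173 for H2-DMb2 and 34092290 to 34092350 for H2-Oa. The pair of motifs was in the windows of 5 of the 6 members, against 1.00% of all 32851 windows. The gap between the motifs was 26 bases in H2-Eb1 and 27 in the other four. GATTGG alone was in a window of all 6 members and in 16.1% of all windows. H2-DMa, which has windows at 2 starts, had no such pair in either of them. Neither window covers 34135628, where the transcript that carried most of its message (H2-DMa-205) starts. The window of H2-DMb2 does not cover 34143307, the start of its main transcript H2-DMb2-203. The run of H2-DMb1 lies wholly downstream of 34153072, the start of H2-DMb1-201, which held 93.3% to 100% of that gene's message. The run of H2-Oa ends past 34092340, the start of H2-Oa-201.

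Expected counts on genes, the reads assigned to them, ranged from 23167140 in replicate 2 to 41453162 in replicate 3, and 10407 genes reached 1 TPM in each library. TPM is the abundance of a message scaled for its length and for the library. The 10 macrophage markers, among them Adgre1 and Csf1r, all reached 1 TPM in each library, with a summed level of 16763 to 19812 TPM. Markers of other cells that carry class II were low. The 10 dendritic cell markers summed to 10.2 to 12.5 TPM. Of these 2, Ccr7 (3.29 to 5.25 TPM) and Batf3 (1.95 to 5.28 TPM), reached 1 TPM in each library. Kmo and Itgax reached at most 1.91 and 1.22 TPM, while Flt3 and Zbtb46 stayed at or below 0.13 and 0.25 TPM. The 10 B cell markers summed to 4.63 to 9.40 TPM, 1 of them, Cd79b, reached 1 TPM in each library, and Cr2 and Ebf1 had no count in any library. Of the 10 T and NK cell markers none reached 1 TPM in each library.

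The 3 classical chains were well above the detection level of 1 TPM. H2-Aa, the alpha chain of the A molecule (ENSMUSG00000036594.15, chromosome 17, 34282744 to 34287823 in mm10), had 124, 244, 170 and 348 TPM in replicates 1, 2, 3 and 4. H2-Ab1, its beta chain (ENSMUSG00000073421.6, 34257689 to 34269419), had 97.4, 166, 126 and 262 TPM. For both chains replicate 1 was lowest and replicate 4 highest, and the highest library was 2.80-fold and 2.69-fold above the lowest. H2-Eb1, the beta chain of the E molecule (ENSMUSG00000060586.11, 34305867 to 34316674), had 69.2, 165, 120.5 and 243 TPM, a 3.51-fold span with the libraries in the same order. Its partner, the E alpha chain, is known to be a pseudogene in C57BL/6 mice. That gene, annotated as H2-Ea-ps, had no count in any of the 4 libraries, which allows up to 3 counts, or between 0.07237 and 0.1295 CPM (counts scaled to the library's total) depending on the library. In bulk RNA, fewer cells with class II and less message per cell cannot be told apart.

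Cd74, the invariant chain (ENSMUSG00000024610.15, chromosome 18, 60803848 to 60812652), was the most abundant member. It had 342, 742, 464 and 917 TPM in replicates 1 to 4, with replicate 1 again lowest and replicate 4 highest, a 2.68-fold span. Its mean of 616 ± 261 TPM (SD, n = 4) placed it 214th among the genes at 1 TPM or more in each library. The means of H2-Aa, H2-Ab1 and H2-Eb1 were 222 ± 97.5, 163 ± 71.9 and 149 ± 73.6 TPM.

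The peptide exchange factor H2-DM is a pair of H2-DMa with a DMb chain. H2-DMa (ENSMUSG00000037649.10, chromosome 17, 34119541 to 34139101) had 31.3, 52.4, 44.0 and 67.5 TPM in replicates 1 to 4. H2-DMb1 (ENSMUSG00000079547.4, 34153072 to 34160230) had 43.4, 72.7, 54.5 and 91.0 TPM. Both had the library order of the classical chains, with narrower spans of 2.16-fold and 2.10-fold. The second beta chain gene, H2-DMb2 (ENSMUSG00000037548.15, 34143307 to 34151555), had only 1.60, 1.62, 0.98 and 1.66 TPM, from 29.2 to 46.6 expected counts per library. Replicate 3 was its low library and the other three were alike. The coding sequences of H2-DMb1-201 and H2-DMb2-201 were 95.9% identical over 783 bases in GENCODE M21, and 37.6% of the 31-base words of H2-DMb1-201 also occurred in H2-DMb2. Reads that lie wholly in shared stretches could be given to either gene. The posterior SD of either count that the authors deposited was 0.99 to 1.26, against 29.2 to 46.6 expected counts for H2-DMb2.

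H2-Oa, the alpha chain of the H2-DM inhibitor H2-O (ENSMUSG00000024334.9, 34092340 to 34095234), had 0.81, 2.88, 0.92 and 2.10 TPM, from 12 to 42 expected counts. Replicates 1 and 3 were low and replicates 2 and 4 high. Its partner H2-Ob stayed between 0.16 and 0.48 TPM, from 4 to 8 counts, and never reached 1 TPM.

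Ciita, the transactivator (ENSMUSG00000022504.10, chromosome 16, 10480059 to 10528418), was far lower than the classical chains and Cd74, and had the widest span of the 9 members. It had 0.62, 6.17, 1.91 and 5.73 TPM in replicates 1 to 4, from 59, 414, 267 and 669 expected counts. Replicates 2 and 4 were high and close to each other, replicate 3 lay between, and replicate 1 was 9.95-fold below replicate 2. The lower and upper bounds that the authors deposited for its TPM were 0.566 and 1.16 in replicate 1 and 5.13 and 6.93 in replicate 2, so these intervals, which cover the assignment and sampling of reads only, did not overlap. Its mean was 3.61 ± 2.76 TPM (SD, n = 4).

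**Figure D1:**
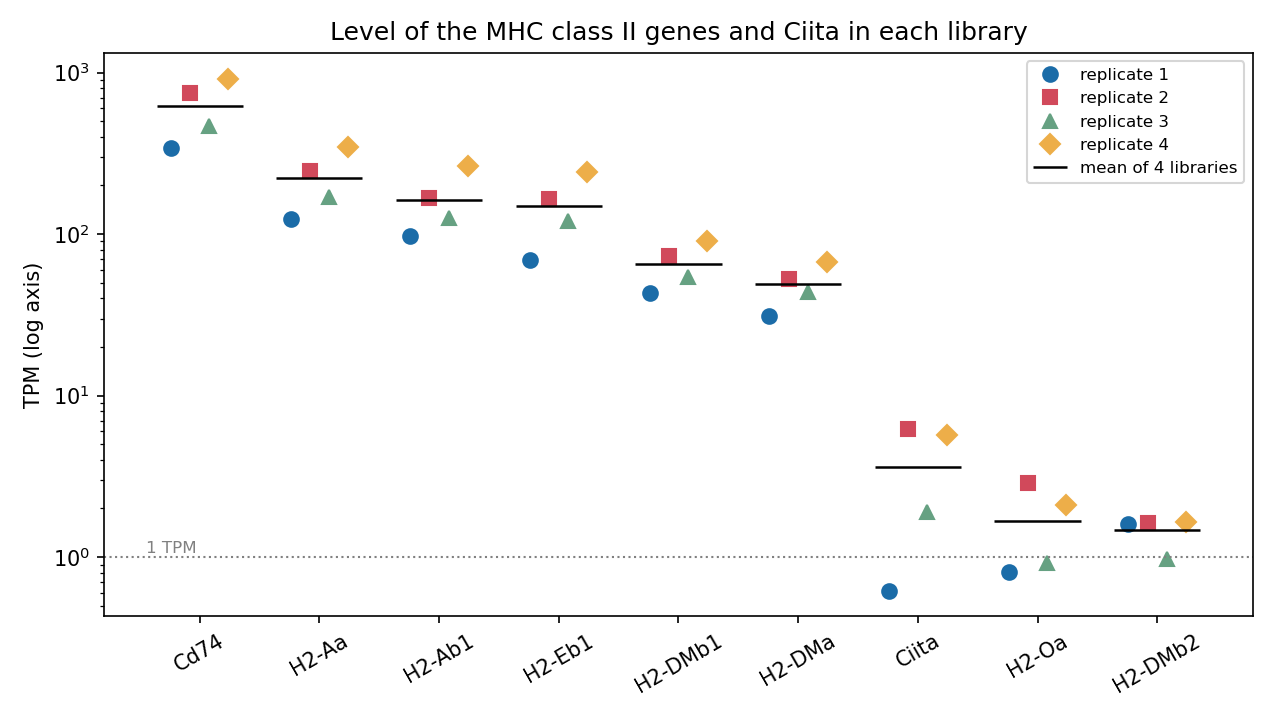
TPM of each member (log axis) in the 4 replicate libraries, with bars at the mean of the 4. Cd74 lies between 342 and 917 TPM and the members fall from left to right, with the only gap between neighbouring ranges at H2-DMa (31.3 to 67.5 TPM) and Ciita (0.62 to 6.17 TPM).

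By mean TPM the order was Cd74, H2-Aa, H2-Ab1, H2-Eb1, H2-DMb1, H2-DMa, Ciita, H2-Oa and H2-DMb2. The ranges over libraries of neighbours in this order overlapped in every pair except H2-DMa and Ciita. Within libraries the order was firmer: from Cd74 down to Ciita the higher gene of each pair was higher in 4 of 4 libraries. Ciita was above H2-Oa in 3 of 4 libraries, and H2-Oa was above H2-DMb2 in 2 of 4, so these last levels were not ordered beyond their spread. Of the 9 members 6 reached 1 TPM in each library; Ciita, H2-Oa and H2-DMb2 did not.

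The members' libraries ranked alike. Replicate 1 was lowest and replicate 4 highest in TPM for 6 of the 9 members, the exceptions being Ciita, H2-Oa and H2-DMb2, and for 16.2% of the 11679 genes tested for variability. On CPM scaled by edgeR's TMM factors this held for 7 members (13.0% of tested genes), and in the second quantification's TPM for 8 (17.6%). Replicates 1 and 3 both lay below replicates 2 and 4 in TPM for all 9 members (22.9% of tested genes). This held for 8 on the TMM scale, without H2-DMb2 (17.8%), and for 4 in the second quantification (6.4%). The deposited records list 6 read files each for replicates 1 and 2 and 4 each for replicates 3 and 4. Within each of these pairs the second library was the higher for all 9 members in TPM (35.0% of tested genes), and for 8, without H2-DMb2, on the TMM scale (28.3%) and in the second quantification (21.1%). In TPM, replicate 2 exceeded replicate 1 by 1.01-fold (H2-DMb2) to 9.95-fold (Ciita), and replicate 4 exceeded replicate 3 by 1.53-fold (H2-DMa) to 3.00-fold (Ciita).

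**Figure D2:**
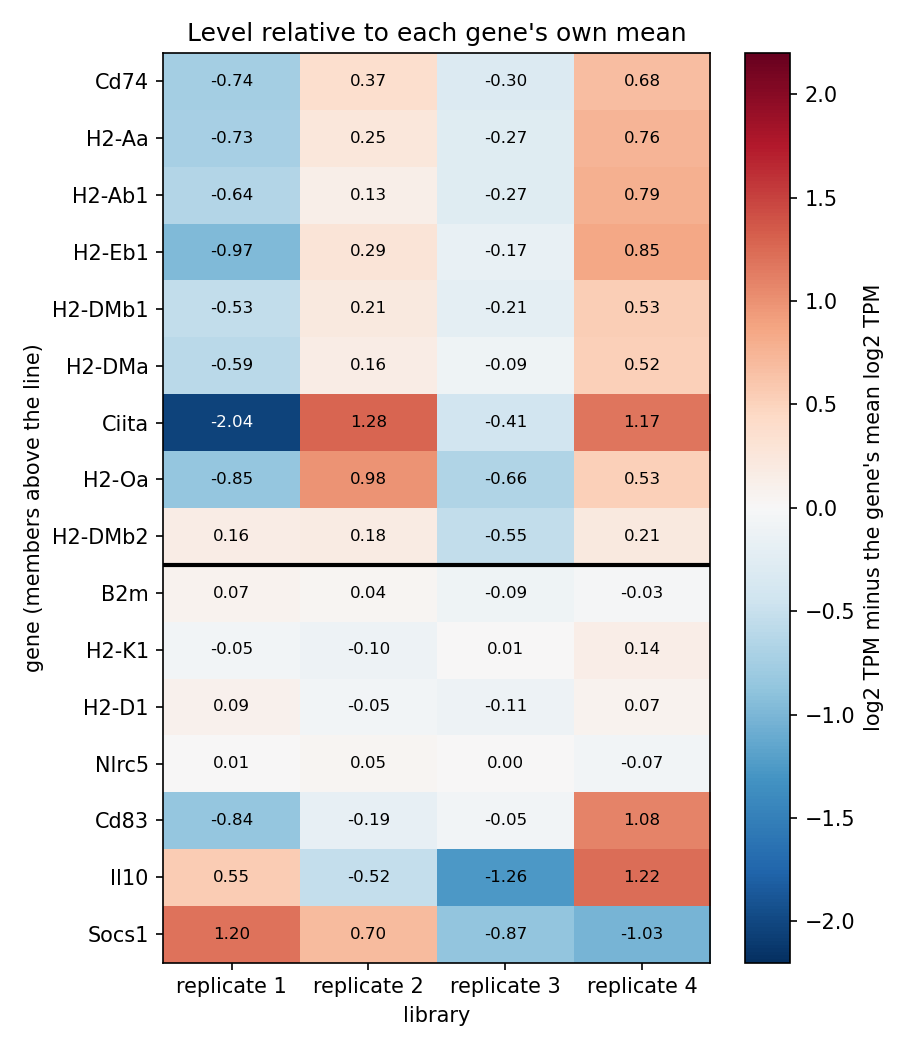
Log2 TPM minus the gene's own mean log2 TPM in each replicate library (columns), for the 9 members above the line and, below it, 3 class I genes, the class I transactivator Nlrc5 and the 3 pathway genes called variable. Ciita spans from -2.04 in replicate 1 to 1.28 in replicate 2, H2-Aa from -0.73 to 0.76, and B2m only from -0.09 to 0.07.

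Other values also differed between libraries, and their part in this ranking was not tested. The macrophage markers summed to 16763, 17233, 17702 and 19812 TPM in replicates 1 to 4, lowest in replicate 1 and highest in replicate 4. Lyz2 alone held 10390 to 12670 TPM of this, and single markers differed. Adgre1 and Lyz2 had the extremes of the sum. Itgam (254 and 115 TPM in replicates 1 and 4) and Fcgr1 (1223 and 693) were highest in replicate 1 and lowest in replicate 4. The remaining markers had neither pair of extremes. T and NK cells can make interferon gamma. Their markers summed to 1.71, 0, 0.99 and 0.03 TPM in replicates 1 to 4, so they were highest in the 2 libraries where the members were low, from at most 5 expected counts for any marker. In replicate 2 all 10 were at 0, and in replicate 4 only Cd3d had a count. The summed level of the dendritic cell markers was 11.2, 10.2, 12.5 and 10.6 TPM and that of the B cell markers 5.49, 4.63, 9.40 and 5.32 TPM, highest in replicate 3 for both. Ribosomal RNA and mitochondrial genes took 9.07%, 5.52%, 6.06% and 6.68% of TPM, most in replicate 1. With those genes taken out of the total, replicate 1 was still lowest and replicate 4 highest for 6 of 9 members (15.7% of tested genes).

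Whether a member varied more between libraries than genes of its abundance was tested with edgeR, by the deviance of each gene's counts over the 4 libraries from a trended dispersion, with Benjamini-Hochberg adjustment over all tested genes. At an adjusted p up to 0.05, 2 of the 9 members were called, against 305 of 11679 genes or 2.61% (910 at an unadjusted p under 0.05, and 135 called without replicate 1). Ciita varied most, with an edgeR adjusted p of 5.95e-06. Its TMM-scaled CPM were 2.49, 17.4, 6.05 and 18.8 in replicates 1 to 4, and replicate 1 stood farthest from the rest, below them. H2-Eb1 had 46.5, 89.1, 61.4 and 132 CPM and an edgeR adjusted p of 0.0142, with replicate 4 farthest, above the rest. Without replicate 1 its adjusted p was 0.119 and without replicate 4 it was 0.611, so this call rests on both libraries, while Ciita was called in all 9 alternatives (adjusted p at most 0.0102).

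The other 7 members did not pass. H2-Ab1 and H2-Aa were near the threshold, with edgeR adjusted p-values of 0.0682 and 0.0696, and H2-Aa passed at 0.0452 when counts were scaled by library size only. Cd74 had 260, 485, 310.2 and 630 CPM and an adjusted p of 0.208. For H2-DMb1, H2-Oa, H2-DMa and H2-DMb2 the edgeR adjusted p-values were 0.504, 0.735, 0.772 and 1. The median span between the highest and lowest library was 1.27 log2 units over the 9 members and 0.48 over all tested genes. MHC class I, which presents peptides from the cytosol, was measured beside it: B2m, H2-K1 and H2-D1 had 14909 ± 740.0, 8438 ± 633 and 4973 ± 332 TPM (SD, n = 4), with spans of 0.37, 0.51 and 0.40 log2 units on the CPM scale, near the median of all tested genes, and none of these genes was called variable.

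**Figure D3:**
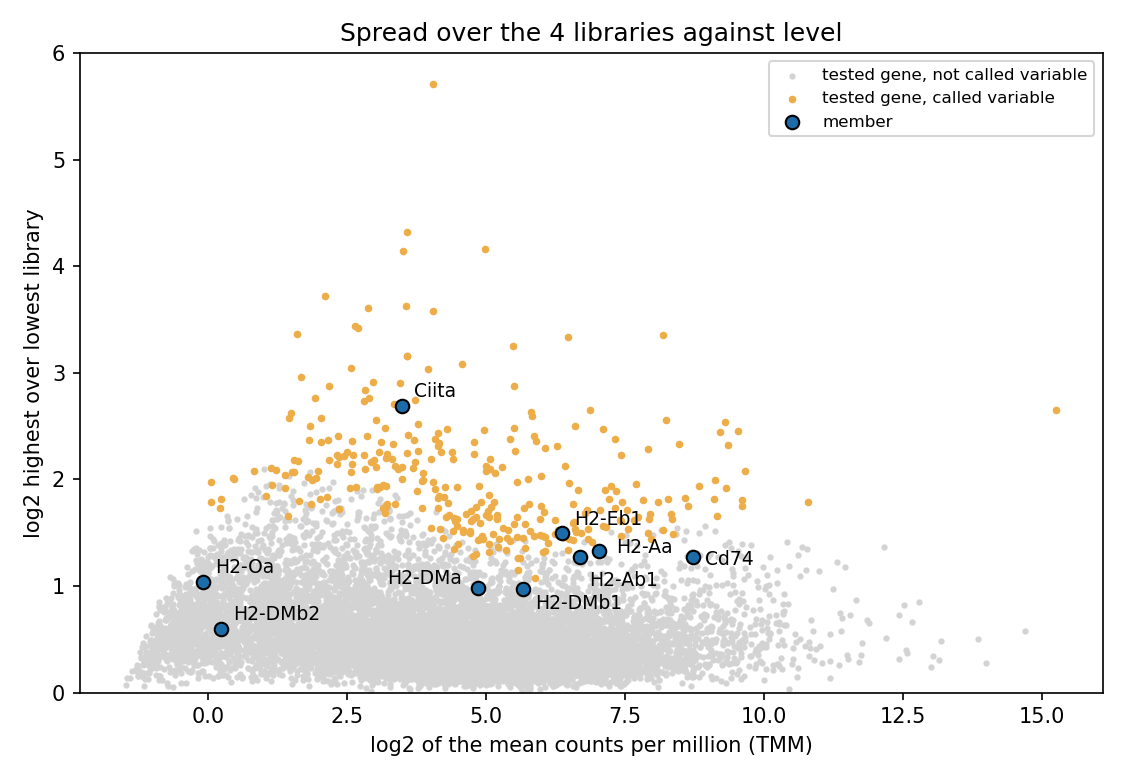
Log2 ratio of the highest to the lowest library against the log2 mean CPM for the 11679 tested genes. A small constant was added to each CPM before the ratio, which narrows the spans of low genes. The genes called variable and the 9 members are marked. Ciita, at 2.69 log2 units, and H2-Eb1, at 1.5, are the members among the called genes, and H2-DMb2 lies lowest of the members at 0.60.

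Some ratios between members were nearly fixed while the levels moved. H2-Aa exceeded H2-Ab1 in TPM 1.28-fold, 1.47-fold, 1.35-fold and 1.33-fold in replicates 1 to 4, a mean log2 ratio of 0.44 ± 0.087 (SD, n = 4). H2-DMa stood at 0.695, 0.705, 0.794 and 0.729 times the sum of the DMb genes, a mean log2 ratio of -0.45 ± 0.086. Cd74 and H2-Aa, which do not form such a pair of chains, kept theirs as closely, at a mean log2 ratio of 1.48 ± 0.088. These SDs are small beside the TPM spans of the single genes, which were 2.10-fold to 2.80-fold for the genes in the 3 ratios other than H2-DMb2.

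Cd74 exceeded H2-Ab1 3.51-fold, 4.47-fold, 3.68-fold and 3.50-fold, with replicate 2 apart from the rest. The log2 ratio of H2-Eb1 to H2-Ab1 was -0.49 in replicate 1 and between -0.11 and -0.01 in the other libraries, so replicate 1 held less of the E chain message for its level of the A chain message. H2-Ab1 exceeded H2-DMa 3.11-fold, 3.17-fold, 2.87-fold and 3.88-fold. H2-DMb1 exceeded H2-DMb2 by 27.1-fold in replicate 1 and by 44.9-fold to 55.6-fold in the others.

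Ciita did not keep a fixed ratio to its targets. Its TPM was 0.00637, 0.0371, 0.0151 and 0.0219 of that of H2-Ab1 in replicates 1 to 4, which spans 2.54 log2 units. Replicates 2 and 4 held similar Ciita, at 6.17 and 5.73 TPM, but 166 and 262 TPM of H2-Ab1. In the second quantification Ciita was at 4.90 and 6.41 TPM in these libraries, so their order for Ciita depends on the scale.

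**Figure D4:**
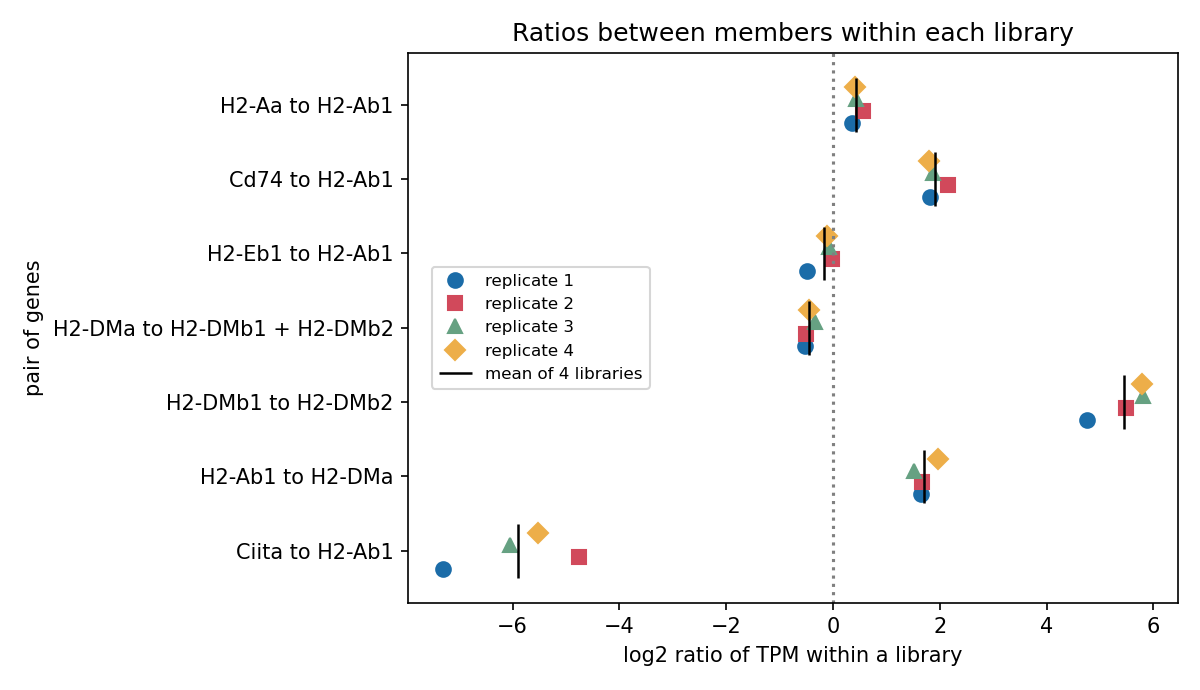
Log2 ratio of TPM within each of the 4 replicate libraries for the 7 pairs of members, with bars at the mean and a dotted line at equal levels. H2-Aa to H2-Ab1 lies between 0.35 and 0.56, while Ciita to H2-Ab1 runs from -7.30 to -4.75.

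The transcripts that carried each gene were described by their deposited shares, in percent of the gene. In H2-Eb1 most of the message was assigned to transcripts annotated as not protein coding. H2-Eb1-205, annotated as a target of nonsense-mediated decay, which destroys messages with an early stop, held 39.2%, 41.8%, 38.7% and 38.3% in replicates 1 to 4. H2-Eb1-204, a short transcript annotated as retaining part of intron 3 (132 bases), held 32.9%, 36.8%, 38.0% and 36.3%. The full-length coding H2-Eb1-203 held 27.6%, 20.0%, 14.8% and 18.0%, which is 19.1, 32.9, 17.9 and 43.8 TPM. Its share was highest in replicate 1 here but lowest there in the second quantification (10.3%, 10.5%, 12.6% and 14.9%), so its order over libraries is not settled. The share assigned to transcripts that are not protein coding was 79.6 ± 5.4% (SD, n = 4), and 86.9 ± 2.12% in the second quantification.

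What separates H2-Eb1-205 from the coding transcript is where exon 2 begins, and the junction is printed to show it. Exon 2 starts at 34309591 in H2-Eb1-203 and at 34309644 in H2-Eb1-205 (chromosome 17, mm10, plus strand), so 53 bases are left out, which is not a multiple of the 3 bases of a codon. Each run below, from the GENCODE M21 annotation, begins with the last 20 bases of exon 1 (34306028 to 34306047) and ends 20 bases past the later start, and the bases left out are in capitals.
H2-Eb1-203: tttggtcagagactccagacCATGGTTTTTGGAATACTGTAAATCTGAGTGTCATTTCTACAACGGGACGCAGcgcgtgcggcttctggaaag
H2-Eb1-205: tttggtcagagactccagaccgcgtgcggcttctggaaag

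H2-Eb1-205 has no base of its own that no other transcript of the gene holds. Reads across its junction of exon 1 with the later start fit it and not H2-Eb1-203, and they were not counted here. Apart from such reads, its share rests on how shared reads were divided between transcripts. The last exon of H2-Eb1-203 runs 475 bases beyond that of H2-Eb1-205, so reads from that end fit the coding transcript.

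Ciita transcripts in the annotation begin in 3 groups of starts. The first group, at 10480059 to 10480164, held 5.22 ± 1.88% (SD, n = 4) of the message. The second, downstream at 10488178 to 10488279, held 86.9%, 61.7%, 77.0% and 71.7% in replicates 1 to 4. The third, at 10489746 to 10489783, held 6.65%, 31.2%, 19.4% and 24.6%, from 1, 56.2, 12.1 and 75.8 expected counts. The share of the third group was thus lowest in replicate 1, where Ciita itself was lowest and only 59 counts stood behind the split. In the second quantification the third group held 8.75%, 49.6%, 22.4% and 40.9%, with the libraries in the same order. Ciita is known to be transcribed from alternative promoters used in different cell types, but the annotation does not name them and they were not assigned here. Nearly all of the second group is Ciita-201, whose last exon runs 1992 bases beyond that of Ciita-203, so a read in that end could be given only to Ciita-201, whatever its start.

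Cd74 was carried by 2 coding transcripts. Cd74-202, which holds an additional exon 7 of 192 bases (chromosome 18, 60811294 to 60811485) and corresponds to the long form of the invariant chain, held 24.2%, 22.3%, 26.9% and 24.6% of the message. Its share moved by a few points while the level of the gene moved 2.68-fold. H2-DMa was carried by H2-DMa-205, which starts at 34135628, at 88.5% to 93.9%. H2-Aa and H2-Ab1 were carried by their full-length coding transcripts H2-Aa-201 (99.5% to 99.9%) and H2-Ab1-201 (95.0% to 97.9%).

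**Figure D5:**
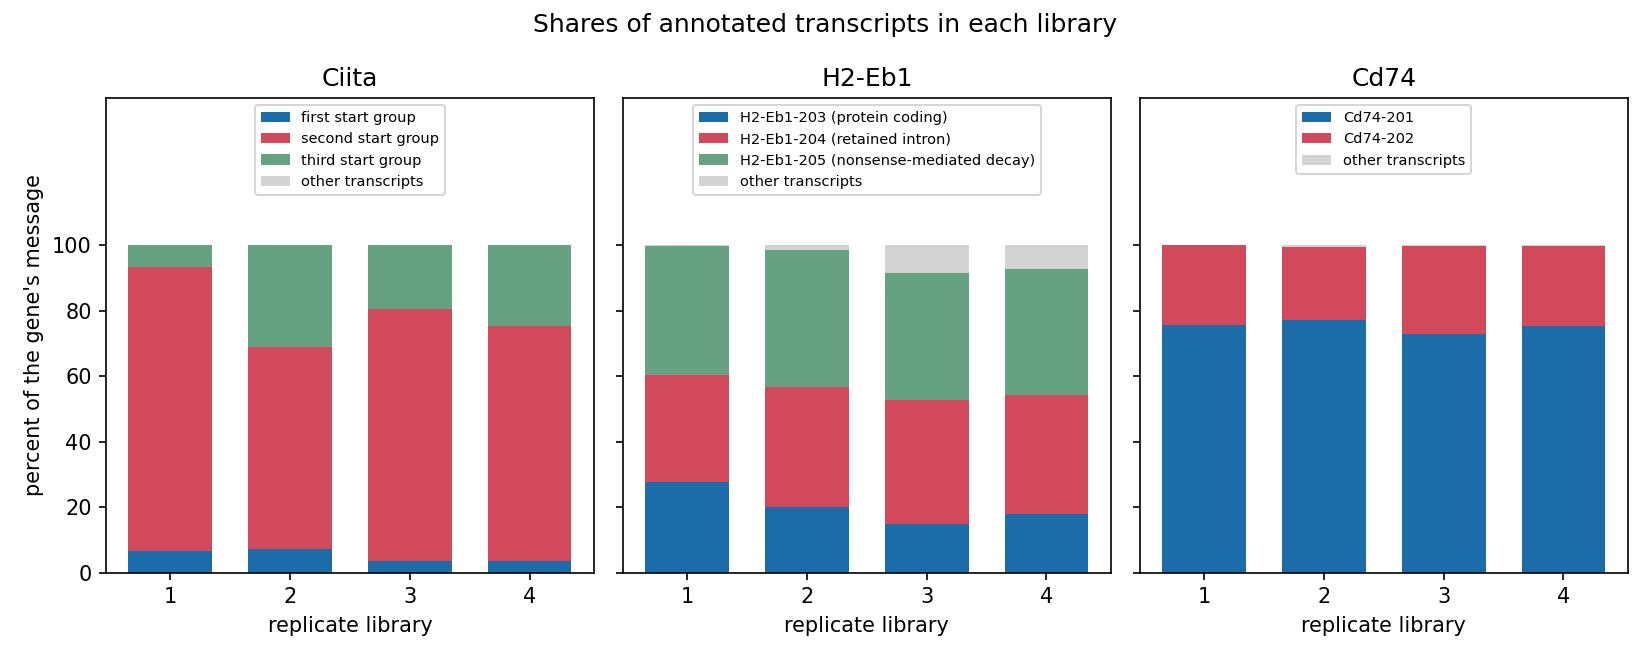
Percent of the gene's message assigned to each transcript or group of start sites of Ciita, H2-Eb1 and Cd74 in the 4 replicate libraries (stacked bars). The third start group of Ciita grows from 6.65% in replicate 1 to 31.2% in replicate 2, H2-Eb1-205 stays at 38.3% to 41.8%, and Cd74-202 at 22.3% to 26.9%.

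Lists of genes that act with the members held 47 symbols, 43 of them in the annotation. Of these 38 reached 1 TPM in each library, against 10407 of the 55536 annotated genes. Of the 39 tested 3 were called variable, against 305 of 11679 genes or 2.61%. At that share, a list of 10 or fewer genes without a call says little about the list. The median span of the 39 was 0.47 log2 units, close to that of all tested genes. The 7 promoter factors of class II, RFX and NF-Y subunits and Creb1, were all detected and none was called variable. Rfx5, the RFX subunit that binds the X box, had 6.16, 9.88, 6.39 and 7.22 TPM, and Nfya 55.9 to 70.1 TPM. Of 10 genes upstream of Ciita, among them the interferon gamma receptors, Jak1, Jak2, Irf1 and Irf8, 9 were detected and none was called variable. Irf1 had 561 to 827 TPM. Interferon gamma itself, Ifng, had 0.41, 0.07, 0.50 and 0 TPM, from 7, 1, 9 and 0 counts. Most of these few reads were in replicates 1 and 3, where the members were low in TPM, and their part was not tested.

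Among 8 negative regulators 2 were called variable, against 2.61% of tested genes. Il10, a cytokine that restrains class II display, had 158, 75.1, 45.1 and 251 TPM in replicates 1 to 4 (edgeR adjusted p = 5.24e-09), highest in replicate 4, where most members were highest too. Socs1, the feedback inhibitor of Jak signalling, had 9.52, 6.74, 2.28 and 2.04 TPM (edgeR adjusted p = 0.00027) and was highest in replicate 1, where Ciita was lowest. Without replicate 1 the adjusted p of Socs1 was 0.0505. Neither followed the members through all 4 libraries. Of the ubiquitin ligases March1 and March8, which remove class II from the surface, and their antagonist Cd83, only Cd83 was called variable. Cd83 had 146, 230, 252 and 554 TPM (edgeR adjusted p = 0.00603), with replicate 1 lowest and replicate 4 highest as in the classical chains, and its adjusted p was 1 without replicate 4.

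The lysosomal proteases that cut antigen and the invariant chain were abundant, and all 7 were detected and none called variable. Ctss, cathepsin S, a protease that cuts the invariant chain, had 4128 to 5156 TPM. Ifi30, the thiol reductase of the same compartment, had 46.7 to 74.2 TPM. Sppl2a, which clears the stub of Cd74, and Mif and Cd44, the ligand and the partner of Cd74 at the cell surface, were detected and not called variable. Nlrc5, the counterpart of Ciita for class I, had 98.9, 101.4, 98.2 and 93.5 TPM, level on this scale in all 4 libraries where Ciita was not. On TMM-scaled CPM it fell from 249.9 in replicate 1 to 169.1 in replicate 4. That span was 0.56 log2 units, and Nlrc5 was not called variable.

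The genes with the patterns nearest to the members were ranked by the root-mean-square distance of log2(TPM + 0.1), centred on each gene's mean over the 4 libraries, among the 10407 detected genes. The 5 nearest to Ciita were Phgdh, the first enzyme of serine synthesis (distance 0.24 log2 units), Nckap5l (0.28), Fads2, a fatty acid desaturase (0.30), Tmem154 (0.33) and the receptor Gpr132 (0.34). Phgdh had 1.03, 6.55, 2.95 and 6.70 TPM, low in replicate 1 and high in replicates 2 and 4 like Ciita. The median distance of all genes was 1.23, and H2-Eb1, the nearest detected member, was at 0.69 (rank 71). For the mean profile of H2-Aa, H2-Ab1, H2-Eb1 and Cd74 the nearest other genes were Gm14548 (0.068), the cytokine Osm (0.082), the pseudogene Rps15a-ps7 (0.088), the helicase Helq (0.098) and Tprn (0.10). H2-DMb1 and H2-DMa, which took no part in that profile, were at 0.17 and 0.18 (ranks 39 and 48, median of all genes 0.56). With 4 libraries many genes can lie close to any profile, and the second list shared only 2 of its 5 genes with either alternative setting.

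The second quantification, made by the authors directly from the reads, was compared with the first by limma on the per-library log2((second TPM + 1)/(first TPM + 1)). None of the 9 members differed by 1 log2 unit or more at an adjusted p up to 0.05, against 422 of 11234 genes or 3.76%. At any size 4 members passed, all lower in the second, against 25.0% of genes that were lower. These were H2-Aa at -0.42 ± 0.14 log2 units (SE, limma adjusted p = 0.0213), H2-DMb1 at -0.40 ± 0.14 (0.0302), Cd74 at -0.39 ± 0.14 (0.028) and H2-DMa at -0.38 ± 0.14 (0.0365). Without replicate 1, 2 or 4 none of the 9 members passed (5.04%, 8.83% and 5.86% of genes), and without replicate 3 there were 5 (44.2%). The median difference was -0.32 over the members and -0.27 over all tested genes. H2-DMb2, the close paralog of H2-DMb1, differed by -0.02.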

How the data were processed

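The members and lists were chosen with earlier results of these data known. Per the deposited records, genes and transcripts were quantified on mm10 with GENCODE M21, first from transcriptome alignments and second from the read files; the programs are not given in the sources used here. Per the file headers the first tables hold an expected count, not normalised, and posterior SDs and TPM bounds as other values. The deposited TPM and FPKM values were scaled by the authors for length and library, and the deposited transcript share is in percent. From the second, the deposited TPM and estimated counts were summed per gene. 

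Rounded counts went into edgeR 4.0.16 under R 4.3.3, with low genes removed by filterByExpr, TMM scaling, estimateDisp with an intercept only, and a chi-square test on 3 degrees of freedom. DESeq2 1.42.0 gave alternative size factors and a dispersion trend. The common biological coefficient of variation was 22.4%. On simulated data with 11679 genes this test recovered 90% of 4-fold and 100% of 8-fold rises in 1 library, with 4 false calls. The counts were drawn from the dispersion trend that the test assumes, so few false calls were due by construction. Rises were put only in genes with more expected counts than H2-Oa and H2-DMb2 had. Smaller changes, or changes in several libraries, were not simulated. Quantifications were compared with limma 3.58.1 (pseudocount 1, genes at a mean of 1 TPM or more). Other steps used Python 3.11.15, numpy 2.4.6, pandas 2.3.3, biopython 1.88 and matplotlib 3.10.9. With 1 group, levels, ratios and shares are described as mean ± SD and no condition was compared. All 9 members, the class I genes B2m, H2-K1 and H2-D1, list genes called variable or needed for a statement, and the 5 nearest genes to each profile are named. Alternatives changed the normalization, filter, dispersion trend, quantification, unit, threshold and pseudocount, or left out a library. Intervals and floors cover counting error only, since PCR reads are not independent molecules.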

Additional observations from a re-analysis of the deposited data

Results flagged for a closer look

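H2-DMb2 in replicate 3 had 0.98 TPM, while the other libraries lay between 1.60 and 1.66 TPM. The gap to the next library was 0.912 of the whole range, above Dixon's 95% critical value for 4 samples. Among the 22 sets of 4 values examined this way (levels, ratios and shares of the members) it was the only one, and chance marks about 1 in 20. Expected counts were 33.1 in replicate 3 and 29.2 to 46.6 in the others, and the second quantification gave 1.14 TPM there against 1.26 to 1.86.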

How the results depend on the processing

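No paired analysis was possible because the series holds 1 group only. The values compared describe the members, with the count of all genes called variable beside them. Against an alternative, 150 comparisons stayed within the spread between libraries or within 1.5 times the count, and 12 did not. Leaving out 1 of 4 libraries cannot move a mean by as much as the SD over the 4. Among the 150, the 36 such comparisons of levels, 28 of ratios and 24 of shares could therefore only stay within it. The number of members called variable was 1 without replicate 1 and without replicate 4 (Ciita alone; range 1 to 2 over the libraries left out), and all genes called variable numbered 135 to 219, the lowest without replicate 1. In FPKM the mean of H2-DMb2 was 1.005, on a scale of its own. The log2 ratio of H2-Aa to H2-Ab1 was 0.34 both in the second quantification and on expected counts. Counts not divided by length gave -0.83 for H2-DMa to the DMb genes and -3.54 for Ciita to H2-Ab1, since the genes differ in length. The second quantification gave shares of 57.5% for Ciita-201, 29.2% for Cd74-202, 44.1% for H2-Eb1-205 and 86.9% for the H2-Eb1 transcripts that are not protein coding; the cause was not tested. The levels of H2-Oa, H2-DMb2 and, in replicate 1, Ciita are limited by depth. No ratio changed sign, and the order of mean levels changed only between H2-Oa and H2-DMb2.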
